A study of Mus musculus with 12 samples.

Results

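The genes described here encode 10 chains of interleukin receptors, among them Il2ra, whose product is CD25, in resting mouse B cells stimulated through TLR2, CD86 or CD40. They were taken by name. All spots, other than controls, whose gene name was Il2ra, Il2rb, Il2rg, Il4ra, Il7r, Il15ra, Il21r, Il10ra, Il5ra or Il13ra1 were collected, which gave 10 of the 50090 gene names and 14 of the 61307 probes on the array. Of these probes 13 were bright enough to be tested, so that each of the 10 genes had at least 1 tested probe. Where a gene had several probes the brightest was used, and the others are described where they differ.

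The B cells came from the spleens of BALB/c mice, 6 weeks old, and were purified by removing the cells that carry CD43, a protein found on most leukocytes other than resting B cells. The labels call the mice female, whereas the methods give both sexes. Cells were left unstimulated, or were cultured with Pam2CSK4 (a synthetic lipopeptide that activates TLR2), with anti-CD86 (an antibody to the costimulatory molecule CD86), with anti-CD86 and Pam2CSK4 together, with anti-CD40 (an antibody to the receptor through which helper T cells activate B cells), or with anti-CD40 and Pam2CSK4 together. All 6 conditions share the strain, the purification and a harvest at 4 h, and each was measured on 2 arrays. The paper's captions speak of 2 biological replicates, but no source used here says whether these were separate mice or cultures. The p-values therefore measure the spread between these arrays, which may be partly technical.

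The receptors for IL-2, IL-4, IL-7, IL-15 and IL-21 share the common gamma chain, the product of Il2rg, and each adds chains of its own. IL-2 and IL-15 signal through the same pair of beta and gamma chains, and the alpha chains CD25 and IL-15 receptor alpha add high affinity for 1 or the other cytokine. Signals from these chains run through JAK kinases to STAT transcription factors. In B cells IL-4 and IL-21 are known for their part in class switching and in the formation of plasma cells, IL-5 for its action on B-1 cells, and IL-10 for limiting inflammation, whereas IL-7 acts mainly on B cell precursors.

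The level of a gene is given as the log2 of the processed signal intensity minus the log2 of the 75th percentile of its array, so that 0 is the 75th percentile and 1 unit is a doubling. Different probes bind with different efficiency, and levels are compared only between conditions for the same probe. Between 46.6% and 60.6% of the spots of an array were well above background. The highest share was that of anti-CD40 replicate 2. Its median intensity was 51.3, against 17.3 to 33.5 on the other arrays. The arrays lay on 2 slides. Slide 1 held 8 arrays, including both of the unstimulated cells and both of anti-CD40 with Pam2CSK4, whereas each of the other conditions had replicate 1 on slide 1 and replicate 2 on slide 2. Replicate arrays differed, by the median over all tested probes, by 0.09 and 0.11 on the log2 scale in the conditions that lay on slide 1 alone and by 0.22 to 0.33 in those split over both slides. Values from a fit with the slide as a block, and from slide 1 alone, therefore stand beside the results. All B cell markers tested (8 of 8, among them Ms4a1, which encodes CD20) were well above background on each array. Markers of other cells were also present, since 8 to 9 of 9 T cell, 5 to 6 of 6 NK cell and 8 of 8 myeloid genes were well above background on an array. In such bulk samples fewer cells of a type and less RNA per cell cannot be told apart.

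**Figure D1:**
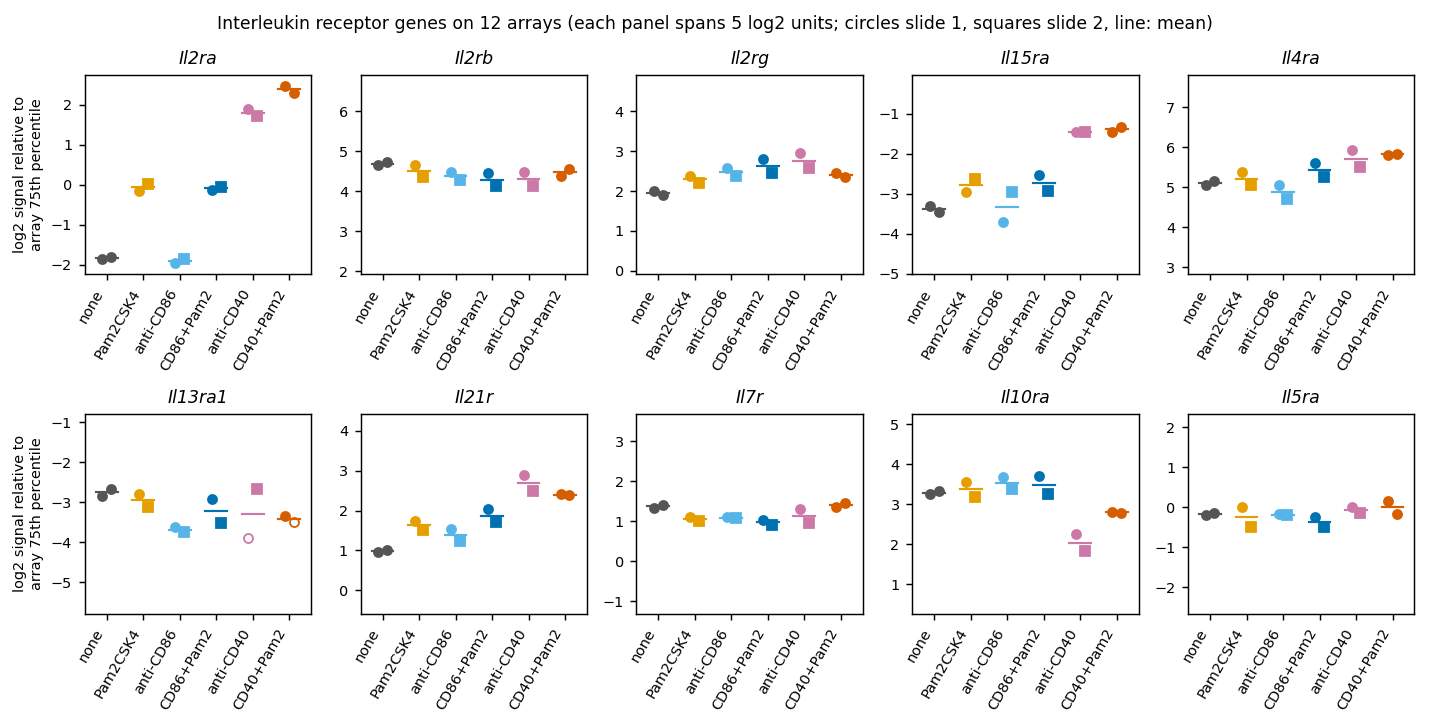
Log2 signal of each receptor gene, scaled to its array's 75th percentile, by condition (none means unstimulated, and the combined conditions are shortened to CD86+Pam2 and CD40+Pam2). Each point is 1 array, circles lie on slide 1 and squares on slide 2, open points were not well above background, lines are means of 2 arrays, and every panel spans 5 log2 units. Il2ra, Il15ra and Il21r are highest in the 2 conditions with anti-CD40, and Il10ra is lowest there.

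Anti-CD40 changed more of these receptors than any other single signal. Against unstimulated cells 5 of the 10 genes passed an adjusted p of 0.05 in limma, when 16.8% of all tested probes did. Il2ra, Il15ra, Il21r and Il2rg rose, as did 6.16% of all probes, and Il10ra fell, as did 10.7%. With anti-CD40 and Pam2CSK4 together 4 of 10 genes rose (Il2ra, Il15ra, Il21r and Il4ra), when 18.2% of all probes were called and 8.54% rose. With anti-CD86 and Pam2CSK4 together 3 of 10 rose (Il2ra, Il21r and Il2rg; 10.8% of all probes called, 3.41% rose), with Pam2CSK4 alone only Il2ra did (0.146% of all probes called, 0.101% rose), and with anti-CD86 alone 0 of 10 passed (2.17% of all probes), with 2 at an unadjusted p under 0.05. Median normalization, the scaling that lowered these counts most, kept Il2ra (3.07) and Il10ra (-1.82) for anti-CD40, Il2ra (4.11) and Il15ra (1.87) for anti-CD40 and Pam2CSK4, and 0 genes for the other stimulations. It scales to signal near background. The array medians were 17.3 to 51.3, when the faintest signal well above background on an array was 19.5 to 32.9. The median log2 difference over the 10 genes was 0.35 with anti-CD40, when it was -0.02 over all probes, and 0.31 with anti-CD40 and Pam2CSK4, when it was 0.01 over all probes. Modelling the slide as a block let more genes pass in every one of these comparisons. The counts were then 7, 7, 7, 5 and 3 of 10 in the order above, against 37.3%, 47.5%, 35.1%, 11.1% and 28.5% of all probes. For anti-CD40 and Pam2CSK4 together the block gave 5 of 10 against Pam2CSK4 (31.5% of all probes), 4 of 10 against anti-CD40 (15.2%) and 7 of 10 against anti-CD86 and Pam2CSK4 (34.6%). It gave 3 of 10 for Pam2CSK4 on top of anti-CD86 (7.74%) and 3 of 10 for the interaction of anti-CD40 and Pam2CSK4 (8.59%), which is defined with its values for Il2ra.

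**Figure D2:**
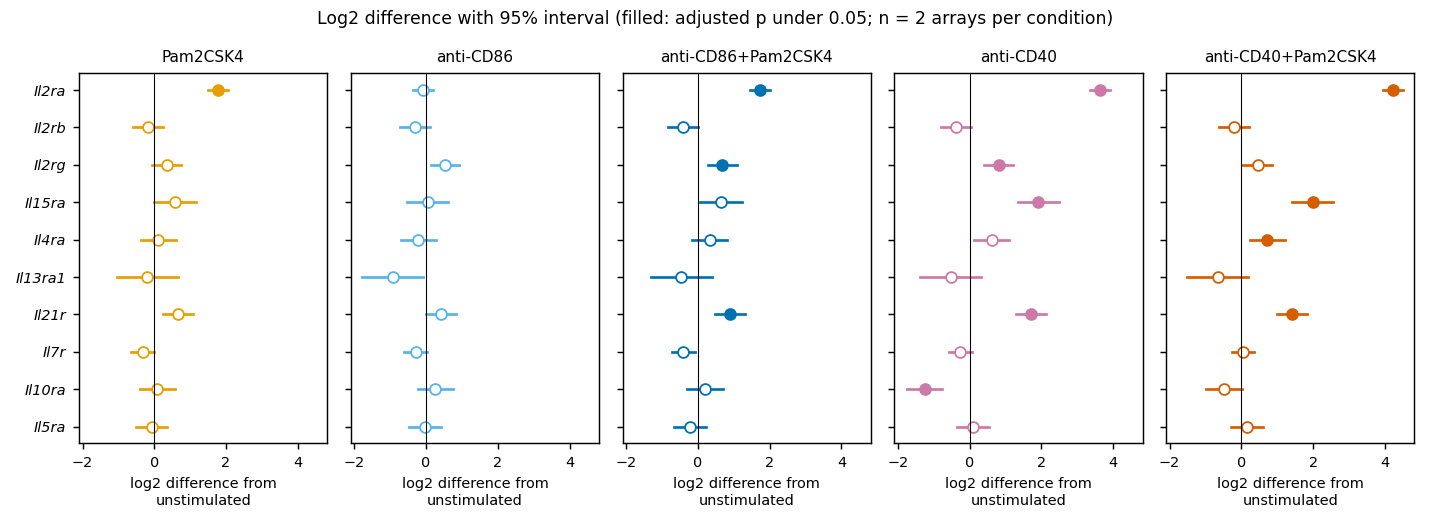
Log2 difference from unstimulated cells for each receptor gene under the 5 stimulations. Points are limma estimates from 2 arrays per condition, bars are 95% intervals, and filled points have an adjusted p under 0.05. The estimate for Il2ra is 3.63 with anti-CD40 and 4.22 with anti-CD40 and Pam2CSK4, and that for Il10ra with anti-CD40 is -1.25.

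Il2ra had the widest range of the 10. Its brighter probe, shown because the main result rests on it, has the sequence below.

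Il2ra probe: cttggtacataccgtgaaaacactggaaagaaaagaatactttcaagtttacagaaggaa

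In unstimulated cells it read -1.85 and -1.82, and with anti-CD86 -1.97 and -1.86. With Pam2CSK4 it read -0.15 and 0.02, and with anti-CD86 and Pam2CSK4 -0.14 and -0.05. With anti-CD40 it read 1.88 and 1.72, and with anti-CD40 and Pam2CSK4 2.48 and 2.29. The arrays thus formed 3 steps that did not overlap, with unstimulated and anti-CD86 cells at the bottom, both conditions with Pam2CSK4 but no anti-CD40 in the middle, and anti-CD40 at the top, where the addition of Pam2CSK4 gave the highest values. Between neighbours in this order, Pam2CSK4 with and without anti-CD86 differed by less than the spread of their arrays.

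Against unstimulated cells Il2ra was 12.4-fold higher with anti-CD40 (log2 difference 3.63, SE 0.12, adjusted p = 2.77e-05) and 18.7-fold higher with anti-CD40 and Pam2CSK4 (4.22, SE 0.12, adjusted p = 9.4e-07). In the fit with a slide block these log2 differences were 3.61 and 4.22, and on slide 1 alone they were 3.72 and 4.22. Pam2CSK4 gave a log2 difference of 1.77 (adjusted p = 0.00395), with anti-CD86 added 1.74 (adjusted p = 0.00205), and anti-CD86 alone -0.08 (95% interval -0.37 to 0.20, adjusted p = 0.726). The call for Pam2CSK4 alone was lost without unstimulated replicate 2 and under median normalization (1.58, adjusted p = 0.197). That with anti-CD86 added was also lost under median normalization (1.45, adjusted p = 0.206). On slide 1, with 1 array of each of these conditions, the differences were 1.68 and 1.69. Anti-CD40 and Pam2CSK4 exceeded anti-CD86 and Pam2CSK4 by 2.48 (5.59-fold, adjusted p = 4.59e-05), a comparison in which 2 of the 10 genes were called (12.3% of all probes), the other being Il15ra.

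Il2ra also had a dimmer probe, which did not rise well above background in unstimulated cells (-4.74 and -5.77), with Pam2CSK4 (-4.04 and -3.94) or anti-CD86 (-6.12 and -6.54). It was well above background in the other conditions. With anti-CD86 and Pam2CSK4 it read -3.73 and -3.5, with anti-CD40 -1.69 and -1.77, and with anti-CD40 and Pam2CSK4 -1.25 and -1.53. It thus had the same conditions on top as the brighter probe, and gave a bound in place of a fold. Each dim array was set to its own signal or, where higher, to the faintest signal on it that counted as well above background. On this basis the probe was at least 4.17-fold higher with anti-CD40 and at least 5.27-fold higher with anti-CD40 and Pam2CSK4 than in unstimulated cells. Against Pam2CSK4 alone the bounds were at least 3.74-fold and 4.73-fold. In limma this probe was not called for Pam2CSK4 against unstimulated cells (1.27, adjusted p = 0.148).

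The promoter of Il2ra is printed because NF-kB, a transcription factor that TLR2 and CD40 both activate, is known to act on this gene. The window, from RefSeq on assembly GRCm38.p6, runs from 250 bases before to 50 bases after the gene start, at chr2:11642542-11642841 on the plus strand. Capitals mark 3 overlapping matches to the NF-kB consensus, counted on both strands.

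Il2ra promoter: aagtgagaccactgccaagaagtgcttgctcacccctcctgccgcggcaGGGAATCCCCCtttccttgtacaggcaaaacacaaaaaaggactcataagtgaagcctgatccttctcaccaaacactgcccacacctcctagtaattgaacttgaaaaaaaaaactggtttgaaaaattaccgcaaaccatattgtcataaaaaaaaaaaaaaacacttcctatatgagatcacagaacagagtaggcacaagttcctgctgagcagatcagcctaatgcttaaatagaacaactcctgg

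The table held a promoter for 8 of the 10 genes, in 9 windows. An NF-kB consensus match lay in the windows of 2 genes, Il2ra and Il4ra, and in 4.5% of all 32851 promoters of the same length. A match to TTCNNNGAA, the core that STAT factors bind, lay in 1 gene, Il7r (8.3% of all promoters), and the AP-1 core TGACTCA in 2, Il15ra and Il5ra (5.2%). All were searched on both strands, and TTCNNNGAA reads the same on both. A match describes letters in the window only.

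On the log2 scale Pam2CSK4 did not add the same amount to Il2ra under each antibody. It added 1.77 on the log2 scale alone, 1.82 on top of anti-CD86 (adjusted p = 0.0018) and 0.59 on top of anti-CD40 (adjusted p = 0.0481). On top of anti-CD86 the difference was 1.68 under median normalization (adjusted p = 0.198), so that the call was lost there. On slide 1, with 1 array of each condition, it was 1.83. In these comparisons 1 of 10 genes was called on top of anti-CD86 (0.225% of all probes) and 1 of 10 on top of anti-CD40 (2.91%), and both times it was Il2ra. The interaction of anti-CD40 and Pam2CSK4, that is the log2 effect of both together minus the sum of the single effects, was -1.18 for Il2ra (SE 0.17, 95% interval -1.58 to -0.78, adjusted p = 0.0209). It was the only call among the 10 genes, when 1.16% of all probes were called. On the dimmer probe it was -0.93 and was not called (adjusted p = 0.275). Nor was that probe's step on top of anti-CD40 (0.34, adjusted p = 0.574), where every array was well above background. A smaller log2 step is a smaller fold, not a smaller gain in signal. As a multiple of the 75th percentile, the brighter probe rose from 0.28 to 0.90 and 1.02 with Pam2CSK4 alone. On top of anti-CD40 it rose from 3.68 and 3.28 to 5.58 and 4.90. The interaction of anti-CD86 and Pam2CSK4 was 0.05 for Il2ra (95% interval -0.35 to 0.45, adjusted p = 0.986), and 1.45 on its dimmer probe (adjusted p = 0.857), which was not well above background in 3 of the 4 conditions that enter it. Of the 10 genes 0 were called (0.019% of all probes, with 0 genes at an unadjusted p under 0.05).

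For the step from anti-CD40 to anti-CD40 and Pam2CSK4, the adjusted p was above the threshold whichever array was left out (0.05 to 0.29), while the estimate stayed at 0.50 to 0.68. In the fit with a slide block it was 0.61 (adjusted p = 0.0132), and under median normalization 1.05 (adjusted p = 0.453). On slide 1, with 1 array of anti-CD40, it was 0.51. The interaction with anti-CD40 missed the threshold without either unstimulated array, without either array of anti-CD40 and Pam2CSK4, and without Pam2CSK4 replicate 2 (adjusted p up to 0.12), whereas the estimate lay between -1.28 and -1.09. It was -1.13 with the slide block (adjusted p = 0.0123), -1.18 on slide 1 and -0.53 under median normalization (adjusted p = 0.553).

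**Figure D3:**
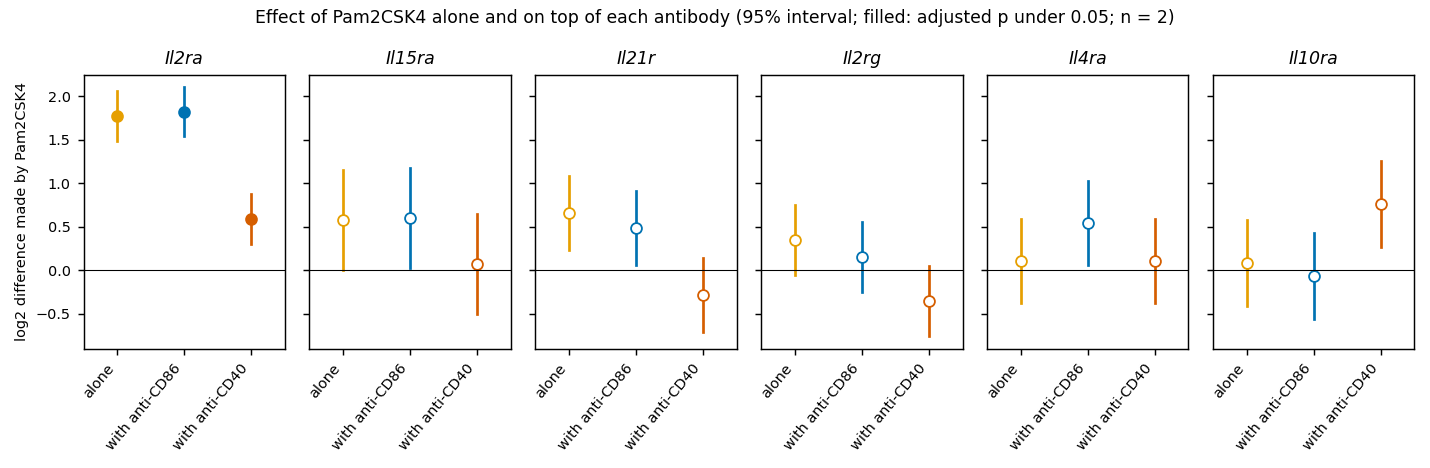
Log2 difference made by Pam2CSK4 alone, with anti-CD86 and with anti-CD40, for 6 receptor genes. Points are limma estimates (2 arrays per condition), bars are 95% intervals and filled points have an adjusted p under 0.05. For Il2ra the difference is 1.77 alone, 1.82 with anti-CD86 and 0.59 with anti-CD40, and for Il21r it is 0.66, 0.49 and -0.28.

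The chains that CD25 works with moved much less. Il2rb encodes the beta chain shared by the IL-2 and IL-15 receptors. It read 4.65 and 4.72 in unstimulated cells, and between 4.12 and 4.66 on the other 10 arrays. Each stimulated condition overlapped with its neighbours in the order of means. It was not called in any comparison (adjusted p over the 6 conditions 0.434), and the lowest estimate against unstimulated cells was -0.41 with anti-CD86 and Pam2CSK4 (95% interval -0.83 to 0.01). The slide block made 3 comparisons pass, with differences of -0.26 with anti-CD86 and Pam2CSK4 (adjusted p = 0.0399), -0.24 with anti-CD40 (adjusted p = 0.0475) and -0.22 with anti-CD40 and Pam2CSK4 (adjusted p = 0.0435).

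Il2rg, the common gamma chain, was higher in every stimulated array than in unstimulated cells. It read 2.00 and 1.89 unstimulated, 2.38 and 2.20 with Pam2CSK4, and 2.57 and 2.37 with anti-CD86. It read 2.80 and 2.44 with anti-CD86 and Pam2CSK4, 2.94 and 2.57 with anti-CD40, and 2.45 and 2.36 with anti-CD40 and Pam2CSK4. Only the unstimulated arrays stood apart, and among the stimulations no neighbours in order differed by more than their spread. The log2 difference was 0.81 with anti-CD40 (1.76-fold, adjusted p = 0.0208) and 0.68 with anti-CD86 and Pam2CSK4 (1.60-fold, adjusted p = 0.0464). The first was lost without either unstimulated array or anti-CD40 replicate 1 (adjusted p up to 0.133). The second passed without either anti-CD40 array and was lost without any of the other 10 (adjusted p up to 0.228). Under median normalization the differences were 0.25 and 0.39 (adjusted p = 0.739 and 0.736), and both calls were lost. Under the slide block Il2rg was called under all 5 stimulations, at 0.46 to 0.95 (adjusted p 0.000489 to 0.0213), and on slide 1 the difference with anti-CD40 was 1.0. The interaction of anti-CD40 and Pam2CSK4 was -0.70 for Il2rg (adjusted p = 0.204), and -0.97 under the slide block (adjusted p = 0.00958).

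Il15ra, the private alpha chain of the IL-15 receptor, was also highest in the conditions with anti-CD40. It read -3.30 and -3.45 in unstimulated cells, -2.95 and -2.64 with Pam2CSK4, and -3.71 and -2.95 with anti-CD86. It read -2.53 and -2.93 with anti-CD86 and Pam2CSK4, -1.46 on both arrays with anti-CD40, and -1.46 and -1.33 with anti-CD40 and Pam2CSK4. All 4 arrays with anti-CD40 were above the other 8, and among these 8 the conditions overlapped with their neighbours in order. Il15ra was 3.76-fold higher with anti-CD40 (log2 difference 1.91, SE 0.25, adjusted p = 0.00428) and 3.95-fold higher with anti-CD40 and Pam2CSK4 (1.98, SE 0.25, adjusted p = 0.00187). Both calls held without any single array, and under the slide block the differences were 1.83 and 1.98. On slide 1 they were 1.91 and 1.98, and anti-CD86 and Pam2CSK4 also passed there, at 0.84 (adjusted p = 0.0351). With normexp background correction the differences with anti-CD40 shrank to 0.86 and 0.97 but passed (adjusted p = 0.00171 and 0.000511). Under median normalization that with anti-CD40 alone was 1.35 and was lost (adjusted p = 0.121).

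With Pam2CSK4 present, anti-CD40 made 3 of 10 genes pass (9.97% of all probes), which were Il2ra at 2.45 (adjusted p = 3.82e-05), Il15ra at 1.40 (adjusted p = 0.0129) and Il21r at 0.76 (adjusted p = 0.0372). For Il15ra this call was lost without either array of anti-CD40 and Pam2CSK4 or without Pam2CSK4 replicate 1 (adjusted p up to 0.0933). Against anti-CD86 and Pam2CSK4 the difference of Il15ra was 1.34 (adjusted p = 0.013), and it was lost without either array of anti-CD40 and Pam2CSK4 or without anti-CD86+Pam2CSK4 replicate 2 (adjusted p up to 0.0911). Pam2CSK4 on top of anti-CD40 added 0.07 to Il15ra (95% interval -0.51 to 0.65, adjusted p = 0.895).

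The gene had a second, dimmer probe that overlaps the brighter one. Both are shown, with the 17 bases they share in capitals, since they are not independent measurements.

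Il15ra brighter probe: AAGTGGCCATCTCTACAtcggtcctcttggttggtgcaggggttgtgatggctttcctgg
Il15ra dimmer probe: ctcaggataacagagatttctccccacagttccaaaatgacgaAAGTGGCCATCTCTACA

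The dimmer probe stayed near background, and was not well above it, in unstimulated cells (-4.64 and -5.63) and with Pam2CSK4 (-4.52 and -4.19). It read -2.68 and -1.67 with anti-CD40 and -2.22 and -2.56 with anti-CD40 and Pam2CSK4, the same 4 arrays on top. Against unstimulated cells it was at least 3.06-fold higher with anti-CD40 and at least 2.63-fold higher with anti-CD40 and Pam2CSK4. The bounds were not tested. Limma called both differences on the signal as measured, dim arrays included (adjusted p = 0.00568 and 0.00416).

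**Figure D4:**
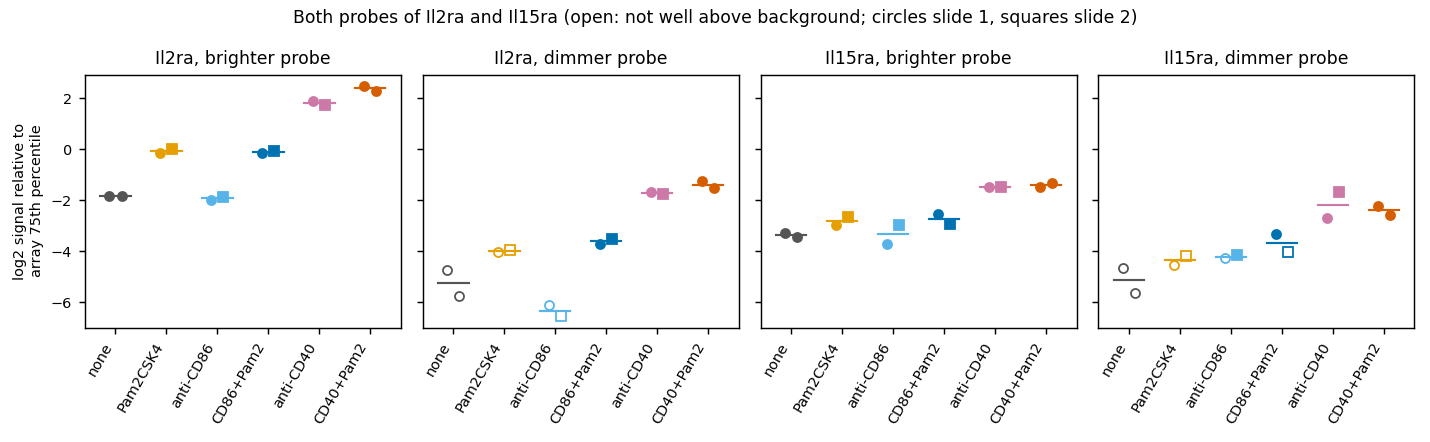
Log2 signal of both probes of Il2ra and of Il15ra, scaled to each array's 75th percentile, by condition, with symbols as in the plot of all receptor levels. On each of the 4 probes the arrays with anti-CD40 are above all the others. The unstimulated arrays of both dimmer probes are open.

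Il21r encodes the receptor chain that binds IL-21 and pairs with the gamma chain. It read 0.96 and 1.00 in unstimulated cells, 1.53 and 1.24 with anti-CD86, and 1.75 and 1.52 with Pam2CSK4. It read 2.03 and 1.71 with anti-CD86 and Pam2CSK4, 2.42 and 2.38 with anti-CD40 and Pam2CSK4, and 2.88 and 2.48 with anti-CD40. Every stimulated array was above both unstimulated ones, and the 4 arrays with anti-CD40 were above all the others. Here the highest mean was that of anti-CD40 alone, and adding Pam2CSK4 to it gave a difference of -0.28 (95% interval -0.71 to 0.14, adjusted p = 0.428), which passed under the slide block at -0.44 (adjusted p = 0.00701).

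The log2 difference of Il21r from unstimulated cells was 1.70 with anti-CD40 (3.25-fold, SE 0.18, adjusted p = 0.00214) and 1.42 with anti-CD40 and Pam2CSK4 (2.67-fold, SE 0.18, adjusted p = 0.00205). Both calls held without any single array and were lost under median normalization (1.13 and 1.31, adjusted p = 0.156 and 0.247). With anti-CD86 and Pam2CSK4 it was 0.89 (1.86-fold, adjusted p = 0.0263), a call lost without any array of the unstimulated, anti-CD86 and Pam2CSK4, or anti-CD40 and Pam2CSK4 cells (adjusted p up to 0.153). The difference of 0.76 between anti-CD40 and Pam2CSK4 together and Pam2CSK4 alone was lost without any array of those conditions or of unstimulated cells (adjusted p up to 0.199). Under the slide block Il21r was called under all 5 stimulations, with 0.81 for Pam2CSK4 (adjusted p = 0.00303), 0.56 for anti-CD86 (adjusted p = 0.00263) and 1.86 for anti-CD40 (adjusted p = 4.24e-05). The interaction of anti-CD40 and Pam2CSK4 was -0.94 for Il21r (adjusted p = 0.142), -1.25 with the slide block (adjusted p = 0.00139) and -1.25 on slide 1.

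Il4ra encodes the alpha chain of the IL-4 receptor, which also takes part in the receptor for IL-13. It read 5.05 and 5.16 unstimulated, 5.38 and 5.06 with Pam2CSK4, 5.07 and 4.71 with anti-CD86, and 5.62 and 5.25 with anti-CD86 and Pam2CSK4. With anti-CD40 it read 5.94 and 5.50, and with anti-CD40 and Pam2CSK4 5.82 and 5.84. The arrays with anti-CD40 were above the unstimulated ones, but neighbouring conditions in the order of means overlapped throughout. Only anti-CD40 with Pam2CSK4 passed, at 0.72 (1.65-fold, adjusted p = 0.0492). This call stood only without an array of anti-CD40 or of anti-CD86 and Pam2CSK4, and it was lost without any of the other 8 (adjusted p up to 0.215). It was also lost on the authors' table of log2 values. Anti-CD40 alone gave 0.61 (adjusted p = 0.0813), and 0.80 with the slide block (adjusted p = 0.000358). The block also let Il4ra pass with Pam2CSK4 (0.30, adjusted p = 0.0339) and with anti-CD86 and Pam2CSK4 (0.51, adjusted p = 0.00205).

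Il13ra1, the chain that joins Il4ra in the IL-13 receptor, read -2.84 and -2.67 in unstimulated cells and between -3.91 and -2.67 on the other arrays. It was not well above background on anti-CD40 replicate 1 or on replicate 2 of anti-CD40 and Pam2CSK4. The gene was not called in any comparison over all arrays, with or without the slide block, and the largest difference was -0.93 with anti-CD86 (95% interval -1.78 to -0.07, adjusted p = 0.185). On slide 1 alone it passed with anti-CD40 (-1.15, adjusted p = 0.0256) and with anti-CD40 and Pam2CSK4 (-0.66, adjusted p = 0.0201), although 1 array of each was not well above background. Its second probe was not well above background on any of the 12 arrays and was not tested.

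Il10ra, the ligand-binding chain of the IL-10 receptor, went the other way. It read 3.25 and 3.32 in unstimulated cells, 3.56 and 3.19 with Pam2CSK4, 3.69 and 3.39 with anti-CD86, and 3.70 and 3.26 with anti-CD86 and Pam2CSK4. With anti-CD40 it read 2.25 and 1.82, and with anti-CD40 and Pam2CSK4 2.81 and 2.79. The anti-CD40 arrays were the lowest, those with Pam2CSK4 added came next, and the other 8 arrays were higher and overlapped. With anti-CD40 Il10ra was 2.38-fold lower (log2 difference -1.25, SE 0.22, adjusted p = 0.0104). This call was lost without either unstimulated array or without anti-CD40 replicate 2 (adjusted p up to 0.0814, log2 difference -1.47 to -1.03). In the blocked fit the difference was -1.06 (adjusted p = 0.000153), and on slide 1 it was -1.03.

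With anti-CD40 and Pam2CSK4 the difference of Il10ra from unstimulated cells was -0.49 (95% interval -0.98 to 0.01, adjusted p = 0.151), and the step from anti-CD40 alone was 0.76 (adjusted p = 0.117). Blocked by slide, these were -0.49 (adjusted p = 0.000756) and 0.57 (adjusted p = 0.00267). In the other direction, the block called Il10ra higher than in unstimulated cells with Pam2CSK4 (0.28, adjusted p = 0.0358), anti-CD86 (0.45, adjusted p = 0.00409) and both (0.39, adjusted p = 0.00437). Myeloid and NK cells also carry IL-10 receptors, and their markers moved with anti-CD40. Of the 8 myeloid genes 2 fell with anti-CD40 (Emr1 by 0.68 and S100a8 by 0.67 on the log2 scale), and 4 fell with anti-CD40 and Pam2CSK4. Of the 6 NK cell genes 3 fell with anti-CD40 (Nkg7, Gzma and Klrb1c) and 1 with anti-CD40 and Pam2CSK4. With anti-CD86 and Pam2CSK4 4 myeloid and 3 NK cell genes fell. The background shares are those given above, 16.8%, 18.2% and 10.8% of all probes called in either direction. With anti-CD40 10.7% of all probes fell. The myeloid gene S100a9 was saturated on at least 1 array and was left out of the sum. On the log2 scale the summed level of the other 7 myeloid genes was 7.21 and 7.20 in unstimulated cells, 6.64 and 6.47 with anti-CD40, 6.78 and 6.80 with anti-CD40 and Pam2CSK4, and 6.65 to 6.95 in the other conditions. That of the NK list was 4.31 and 4.29 in unstimulated cells, 3.85 and 3.59 with anti-CD40, 3.99 and 3.92 with anti-CD40 and Pam2CSK4, and 3.52 to 4.09 in the others. Without S100a9 both sums were thus highest in unstimulated cells. With it, the myeloid sum was 8.34 and 8.46 in unstimulated cells and 8.38 and 8.58 with anti-CD40 and Pam2CSK4. Under the slide block 4 myeloid and 3 NK cell genes fell and 0 rose with anti-CD40 (37.3% of all probes called). With Pam2CSK4 added 5 and 3 fell and 1 of each rose (47.5%). With anti-CD86 and Pam2CSK4 4 of each fell and 1 myeloid gene rose (35.1%). Of the NK cell genes Ncr1 was not well above background on 3 arrays. The part of both cell types in the levels of Il10ra, and of Il2rb, which NK cells also carry, was not tested.

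Il7r, the IL-7 receptor alpha chain of lymphocyte precursors and T cells, read 1.34 and 1.42 unstimulated, 1.37 and 1.47 with anti-CD40 and Pam2CSK4, and 0.91 to 1.30 on the other 8 arrays. The arrays of those 2 conditions were thus above all the rest. No comparison passed (adjusted p over the 6 conditions 0.14), and the largest differences were -0.40 between anti-CD86 and Pam2CSK4 and unstimulated cells (adjusted p = 0.0928) and 0.44 between both combinations (adjusted p = 0.0748). Blocked by slide, these were -0.33 (adjusted p = 0.0359) and 0.37 (adjusted p = 0.0246). Both conditions with the higher level lay on slide 1 alone. The 9 T cell genes summed to 5.12 and 5.15 on the log2 scale in unstimulated cells, 5.02 and 5.01 with anti-CD40 and Pam2CSK4, and 4.53 to 5.03 on the other 8 arrays. With anti-CD86 and Pam2CSK4 1 of them rose (Cd4) and 1 fell (Thy1), when 10.8% of all probes were called. Under the other 4 stimulations 0 of 9 were called. Under the slide block 2 fell with anti-CD86 (28.5% of all probes called) and 2 fell with anti-CD40 (37.3%). In either combined condition 3 fell and 1 rose (35.1% with anti-CD86, 47.5% with anti-CD40), and 0 passed with Pam2CSK4 (11.1%). Their part in the level of Il7r was not tested. A dimmer probe of Il7r was not well above background on either array of 2 conditions, among them Pam2CSK4. In the fit over all arrays without a block it was not called in any comparison, and Pam2CSK4 against unstimulated cells gave -1.60 (adjusted p = 0.169).

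Il5ra encodes the IL-5 receptor alpha chain. It lay between -0.49 and 0.17 on all 12 arrays, and the conditions overlapped throughout. No comparison passed, and the 95% intervals of its 5 differences from unstimulated cells all lay between -0.66 and 0.59.

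Over all 6 conditions 4 of the 10 genes differed in limma's F test (20.4% of all probes), with adjusted p-values of 4.65e-06 for Il2ra, 0.00387 for Il15ra, 0.00416 for Il21r and 0.0114 for Il10ra. Between anti-CD86 with Pam2CSK4 and Pam2CSK4 alone 0 of 10 were called (0.0633% of all probes), with 0 at an unadjusted p under 0.05. Under the slide block Il2rg (0.33, adjusted p = 0.0442) and Il21r (0.24, adjusted p = 0.0493) passed in that comparison, when 11% of all probes did.

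Transcripts of most ligands of these receptors were near background in the B cells. Of 8 ligand genes 4 were tested (Il4, Il10, Il13 and Il15), whereas Il2, Il5, Il7 and Il21 were not well above background on both arrays of any condition. Il4 read 0.03 and 0.00 in unstimulated cells and -0.77 and -1.23 with anti-CD86 and Pam2CSK4, a fall by 1.01 on the log2 scale (adjusted p = 0.0423). Il15 was not well above background on either anti-CD40 array, so that its level there is only bounded, and it was called lower there (adjusted p = 0.0266). No ligand was called with Pam2CSK4, anti-CD86, or anti-CD40 and Pam2CSK4 (0.146%, 2.17% and 18.2% of all probes called). Under the slide block 1 was called with Pam2CSK4 (11.1% of all probes) and 2 of the 4 tested under each other stimulation (28.5% to 47.5%).

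Of the 11 JAK and STAT genes, all were tested. With anti-CD40 3 rose and 2 fell, with anti-CD40 and Pam2CSK4 3 rose and 1 fell, with anti-CD86 and Pam2CSK4 2 rose, and with Pam2CSK4 or anti-CD86 alone 0 passed. The shares of all probes called were 16.8%, 18.2%, 10.8%, 0.146% and 2.17% in that order. Under the slide block the counts were 8, 8, 7, 4 and 4 of 11, against 37.3%, 47.5%, 35.1%, 11.1% and 28.5% of all probes. Stat5a, which acts downstream of the IL-2 receptor, rose by 0.99 on the log2 scale with anti-CD40 (adjusted p = 0.0151) and by 1.15 with anti-CD40 and Pam2CSK4 (adjusted p = 0.00568). Stat6, which acts downstream of the IL-4 receptor, rose by 0.97 and 0.95 in these conditions (adjusted p = 0.00765 and 0.00495). Stat4, known from IL-12 signalling, rose by 0.82 and 1.02 (adjusted p = 0.0401 and 0.0159). Tyk2, a JAK kinase, rose by 0.72 with anti-CD86 and Pam2CSK4 (adjusted p = 0.0297). The median over the 11 genes was -0.09 with anti-CD40 and 0.27 with anti-CD40 and Pam2CSK4, when it was -0.02 and 0.01 over all probes.

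Another 35 genes of interleukin and related cytokine receptors were on the array, and 26 were tested. With anti-CD40 1 rose and 4 fell, with anti-CD40 and Pam2CSK4 1 rose and 3 fell, with anti-CD86 and Pam2CSK4 1 rose and 5 fell, with anti-CD86 1 rose, and with Pam2CSK4 0 passed. The 5 and 4 of 26 called with anti-CD40 and with anti-CD40 and Pam2CSK4 are near the shares of all probes, 16.8% and 18.2%. In the remaining conditions, in the order above, the shares were 10.8%, 2.17% and 0.146%. The slide block called 9, 11, 11, 9 and 4 of 26 in the order of conditions above, against 37.3%, 47.5%, 35.1%, 28.5% and 11.1% of all probes. Csf2ra, the alpha chain of the GM-CSF receptor, fell by 0.68 with anti-CD40 (adjusted p = 0.0125) and by 0.84 with anti-CD40 and Pam2CSK4 (adjusted p = 0.00365). Lifr, the receptor chain for leukaemia inhibitory factor, fell by 0.93 with anti-CD86 and Pam2CSK4 (adjusted p = 0.0489). Il17ra, an IL-17 receptor chain, rose by 0.77 with anti-CD86 (adjusted p = 0.0362) and by 0.53 with anti-CD40 (adjusted p = 0.0314). Il12rb2, a chain of the IL-12 receptor, rose by 0.86 with anti-CD40 and Pam2CSK4 (adjusted p = 0.0337), although only 1 of its unstimulated arrays was well above background. The median over the 26 genes was -0.13 with anti-CD40 and -0.08 with anti-CD40 and Pam2CSK4. Myeloid cells also carry the GM-CSF receptor, and the myeloid genes that fell in these conditions are given beside Il10ra. Their part in the fall of Csf2ra was not tested.

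Across the 12 arrays the members most like each other were Il2ra and Il15ra (Pearson's r 0.96). For Il21r the most similar member was Il2ra (0.91), for Il4ra it was Il21r (0.88), for Il2rg it was Il21r (0.77), and for Il2rb and Il7r it was each other (0.71). Il5ra was most like Il7r (0.57), Il10ra most like Il2rb (0.38) and Il13ra1 most like Il2rb (0.27), whereas Il10ra had an r of -0.80 with Il15ra. Of 15573 genes compared, those most like Il2ra were Sema7a (0.998), Cdk5r1 (0.995), Bcl2l1 (0.994), Irf4 (0.993) and Nfkbie (0.99). Sema7a encodes a membrane-anchored semaphorin, Bcl2l1 the survival protein Bcl-xL, Irf4 a transcription factor of activated B cells and plasma cells, and Nfkbie an inhibitor of NF-kB. The mean level of Sema7a was 4.03 unstimulated, 5.22 with Pam2CSK4, 6.45 with anti-CD40 and 6.82 with anti-CD40 and Pam2CSK4. These coefficients describe arrays that share conditions, slides and the percentile to which they were scaled.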

How the data were processed

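Splenic B cell RNA was measured on 12 one-colour arrays. Per the labels and methods, the authors labelled RNA with Cy3 and extracted images with Agilent Feature Extraction 10.5.1.1, and the deposited values are processed signal intensities, corrected for background within each array. The authors also deposited log2 values of the same arrays, which equalled the log2 signal minus a constant per array. Here log2 intensities were scaled to the 75th percentile of the array. Spots of the same probe were averaged, and control and outlier spots were left out. Of 61307 probes, 31599 were tested (at least 1 condition had both arrays well above background, and no value was missing). limma 3.58.1 (R 4.3.3) fitted 1 coefficient per condition over all arrays, with Benjamini-Hochberg adjustment over the probes tested and a threshold of 0.05. The fit was tested on simulated data with independent noise on each array and no slide effect, so that test does not cover the difference between slides. The number of arrays limits the precision. Normalization, background correction, filter, probe summary, slide and replicate blocks and leaving out arrays were varied. The 10 genes and all lists were chosen with earlier results of these data known. All 10 are named; tests are given for calls, changes of at least 2-fold and all comparisons of Il2ra; of the lists, at most 4 called genes. Promoters and gene names were read with Python 3.11.15 from RefSeq tables of GRCm38.p6. The array is annotated to mm9, so probes were given no coordinates.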

Additional observations from a re-analysis of the deposited data

Results flagged for a closer look

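The log2 effect of Pam2CSK4 on Il2ra differed with and without anti-CD40. It was 1.77 on the log2 scale alone and 0.59 on top of anti-CD40, and limma's test of the difference itself gave an interaction of -1.18 (SE 0.17, adjusted p = 0.0209; adjusted p 0.00753 to 0.553 over the alternatives). Pam2CSK4 raised the signal on both arrays in either setting, and the gain in signal itself was not smaller on top of anti-CD40. On the dimmer probe of Il2ra the interaction was not called (-0.93, adjusted p = 0.275). No explanation was tested.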

How the results depend on the processing

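All 21 member differences that were called kept their direction under every alternative, and 5 of them stayed called under each. Median normalization had the widest effect. It moved the median log2 difference over all probes from -0.02 to -0.58 for anti-CD40 and from 0.16 to 0.81 for its interaction with Pam2CSK4, and against unstimulated cells it left 0 genes called for Pam2CSK4, 0 for anti-CD86 and Pam2CSK4, 2 for anti-CD40 and 2 for anti-CD40 and Pam2CSK4. It also left 0 for anti-CD86+Pam2CSK4 against anti-CD86, 1 for anti-CD40+Pam2CSK4 against Pam2CSK4, 0 against anti-CD40, 1 against anti-CD86+Pam2CSK4, 0 for the interaction with anti-CD40 and 2 over all conditions. Without a filter on dim probes the counts were 1 for anti-CD86 and Pam2CSK4 against unstimulated cells, and, for anti-CD40+Pam2CSK4, 1 against Pam2CSK4, 0 against anti-CD40 and 1 against anti-CD86+Pam2CSK4, with 0 for the interaction with anti-CD40. The mean over probes and normexp each gave 0 for anti-CD40+Pam2CSK4 against anti-CD40 and 0 for that interaction. Quantile normalization gave 1 for anti-CD86, 4 for anti-CD40+Pam2CSK4 against anti-CD86+Pam2CSK4 and 2 for the interaction, and moderation with an intensity trend gave 4 for the second of these.

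With the slide as a block the counts against unstimulated cells were 5 for Pam2CSK4, 3 for anti-CD86, 7 for anti-CD86+Pam2CSK4 and 7 for anti-CD40+Pam2CSK4. Between stimulations they were 2 and 3 for anti-CD86+Pam2CSK4 against Pam2CSK4 and anti-CD86, 5, 4 and 7 for anti-CD40+Pam2CSK4 against Pam2CSK4, anti-CD40 and anti-CD86+Pam2CSK4, and 3 for the interaction with anti-CD40. On the 8 arrays of slide 1 alone the conditions split over the slides kept 1 array each, so sizes rather than counts are given here. The Il2ra differences from unstimulated cells there were 1.68 with Pam2CSK4, -0.13 with anti-CD86 and 1.69 with anti-CD86+Pam2CSK4. They were 3.72 with anti-CD40 and 4.22 with anti-CD40+Pam2CSK4.

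The replicate numbers were also fitted as a block, which gave 1 gene for anti-CD86, 5, 2 and 5 for anti-CD40+Pam2CSK4 against Pam2CSK4, anti-CD40 and anti-CD86+Pam2CSK4, and 2 for the interaction with anti-CD40. Deviations of same-numbered arrays correlated at 0.538 to 0.674 among the 4 conditions split over the slides and at -0.107 to 0.067 otherwise, so that the pairing by number was that of the slides and the numbers were not taken to pair samples.

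Leaving out each array in turn, the genes called against unstimulated cells were 0 to 1 for Pam2CSK4 (0 without unstimulated replicate 2), 0 for anti-CD86, 1 to 4 for anti-CD86 and Pam2CSK4 (1 without either array of it, of unstimulated cells or of anti-CD40+Pam2CSK4), 3 to 5 for anti-CD40 (3 without either unstimulated array) and 3 to 4 for anti-CD40+Pam2CSK4. For anti-CD86+Pam2CSK4 they were 0 against Pam2CSK4 and 1 against anti-CD86. For anti-CD40+Pam2CSK4 they were 1 to 3 against Pam2CSK4 (1 without either of its arrays or Pam2CSK4 replicate 1), 0 against anti-CD40 whichever array was left out, and 1 to 3 against anti-CD86+Pam2CSK4 (1 without either of its arrays or anti-CD86+Pam2CSK4 replicate 2). For the interactions they were 0 with anti-CD86 and 0 to 1 with anti-CD40, and 4 to 5 over all conditions. There were 2 small differences of Il2ra that changed sign. That between anti-CD86+Pam2CSK4 and Pam2CSK4 (-0.03) was 0.17 with the mean over probes, 0.014 without anti-CD86+Pam2CSK4 replicate 1, 0.055 without Pam2CSK4 replicate 2 and 0.009 on slide 1 (-0.121 to 0.055 over the arrays left out), and the interaction with anti-CD86 (0.05) was -0.039 without Pam2CSK4 replicate 1 and -0.003 without anti-CD86 replicate 1 (-0.039 to 0.137 over the arrays left out), and 0.752 with the mean over probes. Neither was called under any setting. The causes of these changes were not tested, and signal near background limits Il13ra1 and the dimmer probes.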
